A study of Mus musculus with 4 samples.

Results

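The genes described here encode the core of transforming growth factor beta (TGF-β) signalling: the ligands *Tgfb1*, *Tgfb2* and *Tgfb3*, the receptors *Tgfbr1* and *Tgfbr2*, and the intracellular transducers *Smad2*, *Smad3*, *Smad4* and *Smad7*. They were chosen by gene symbol, and each transcript of a chosen gene that the deposited transcript table holds was kept. This gave 18 transcripts of 9 genes, out of 34200 transcripts of 21945 genes. The experiment compared NIH/3T3 cells, an established line of mouse embryonic fibroblasts, after knockdown (KD) of the histone H3K36 methyltransferase *Setd2* with the same cells after transfection of a Scrambled siRNA, which the study calls WT. The siRNA concentration was 10 nM in both groups, all cells received a lipid transfection reagent, and RNA was taken at 48 h. Polyadenylated RNA was sequenced from 2 KD and 2 WT samples, and the question was which transcripts change when *Setd2* is depleted. The paper reports replicate transfections, but not whether the sequenced samples of a group came from separate ones. The p-values therefore measure the spread between these samples, which may be technical. Both groups come from a single line, so differences between lines were not sampled.

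TGF-β ligands are secreted as latent complexes that are stored in the extracellular matrix and must be activated. The active ligand binds the type II receptor TGFBR2, which recruits and phosphorylates the type I receptor TGFBR1. TGFBR1 then phosphorylates SMAD2 and SMAD3, which enter the nucleus with SMAD4, while SMAD7 is induced by the signal and blocks the receptors. In fibroblasts the pathway is known for switching on collagen and contractile genes.

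Both receptors were lower in KD than in WT. The main transcript of *Tgfbr1* and the longer transcript of *Tgfbr2* each fell by 0.79 on the log2 scale, which is 42.2% lower for each. They were the only members past the threshold of the test, an adjusted p under 0.05 in limma. No ligand transcript and no SMAD transcript passed it in either direction. All 5 receptor transcripts had a negative estimate, but they are isoforms of only 2 genes and share sequence within each gene. The 3 that missed the threshold are the shorter *Tgfbr2* transcript and 2 rare *Tgfbr1* isoforms.

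Several members were measured as more than 1 isoform, and isoforms of a gene can be told apart only where their sequences differ. The splice junctions at which the tested isoforms of *Tgfbr2*, *Tgfbr1* and *Tgfb2* differ are shown, but these isoforms also differ elsewhere. In the longer *Tgfbr2* transcript, 4714 words of 31 bases (58.67%) are absent from the other tested isoform. In the main *Tgfbr1* transcript, 2911 (50.84%) are absent from the other tested isoforms of its gene. An exon of 75 bases or an extension of 12 bases holds far fewer words, so the receptor results do not rest on the junctions alone. Each line holds 30 bases of the mRNA, 5′ to 3′, from the GENCODE M21 transcripts on GRCm38, with the end of the upstream exon in lower case and the start of the downstream exon in capitals.
*Tgfbr2* ENSMUST00000061101.11, exon 1 to exon 2: acgttcccaagtcggATGTGGAAATGGAAG
*Tgfbr2* ENSMUST00000035014.7, exon 1 to exon 2: acgttcccaagtcggTTAACAGTGATGTCA
*Tgfbr1* ENSMUST00000007757.14, exon 2 to exon 3: aactcccaactacagGACCTTTTTCAGAAA
*Tgfbr1* ENSMUST00000044234.13, exon 2 to exon 3: aactcccaactacagAAAAGCAGTCAGCTG
*Tgfbr1* ENSMUST00000107725.2, exon 1 to exon 2: tacaggagaataaagGACCTTTTTCAGAAA
*Tgfb2* ENSMUST00000045288.13, exon 1 to exon 2: acctcccctccgaaaATGCCATCCCGCCCA
*Tgfb2* ENSMUST00000195201.1, exon 1 to exon 2: acctcccctccgaaaCTGTCTGCCCAGTTG

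The *Tgfbr2* pair shares the last bases of exon 1 and then diverges, because ENSMUST00000061101.11 carries a coding exon of 75 bases (chr9:116158271-116158345, minus strand) that ENSMUST00000035014.7 skips. The first pair of *Tgfbr1* transcripts differs by the start of exon 3, which is 12 bases longer in ENSMUST00000007757.14. The third *Tgfbr1* transcript starts at another first exon and joins it to the longer form of that same exon. In *Tgfb2*, ENSMUST00000195201.1 holds an extra exon of 84 bases (chr1:186690721-186690804, minus strand) after exon 1. None of these junction windows occurs in the other tested isoforms of its gene.

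**Figure D1:**
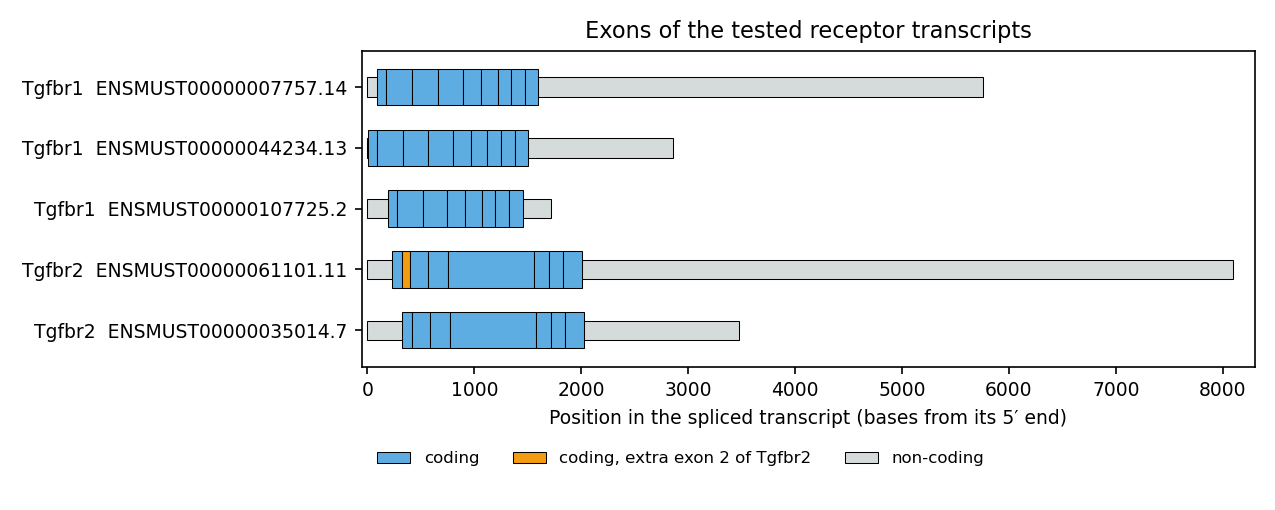
Exons of the 5 tested receptor transcripts, drawn to scale in bases from the 5′ end of the spliced transcript (x axis), with coding sequence as tall blocks and non-coding sequence as low blocks. The 75-base exon that is present in only 1 of the *Tgfbr2* transcripts is coloured, and the longer *Tgfbr2* transcript (8092 bases, against 3476) also has a much longer non-coding 3′ end.

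The deposited table gives a mean over the 4 libraries and variances for each transcript, not the value of each library. Group levels were therefore computed from the mean and the difference between the groups, as normalised estimated counts, and whether single KD and WT libraries overlap was not examined. The depth of the libraries is unknown, so no interval for counting error is given. In bulk RNA a change in the share of cells that express a gene and a change in RNA per cell cannot be told apart. The targeted gene was measured by 1 transcript, *Setd2* ENSMUST00000153838.7, which stood at 923.3 counts in KD and 3680.4 counts in WT. It was 74.9% lower in KD, a log2(fold change) of −1.99 (SE 0.08, n = 2 against 2, limma adjusted p = 0.0144). All 10 fibroblast markers were in the table, with a summed level of 1119097 counts in KD and 1250948 in WT, although *Lum* had a mean of only 6.99 counts. Markers of other cell types summed to at most 426.5 counts per type in KD and 365.2 in WT, both for blood markers, and 0 of their 18 transcripts passed the threshold in limma (smallest adjusted p = 0.0599). The epithelial markers *Epcam*, *Krt18* and *Krt19*, the muscle regulators *Myod1* and *Myog* and the adipocyte markers *Adipoq* and *Pparg* had no row in the table.

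Among all 34200 transcripts, 4.24% were called lower and 5.44% higher in KD by limma at an adjusted p under 0.05. Of the 18 member transcripts, 2 (11.1%) were called lower and 0 higher, and 4 (22.2%) had an unadjusted p under 0.05, against 28.2% of all transcripts. Both called members are well expressed, and among the 18808 transcripts whose mean reached 100 counts or more the shares called were 6.55% lower and 9.1% higher. Of the members, 13 had a mean of at least 100 counts and 5 did not. The median log2 difference of the 18 members was −0.02, beside −0.01 over all transcripts.

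**Figure D2:**
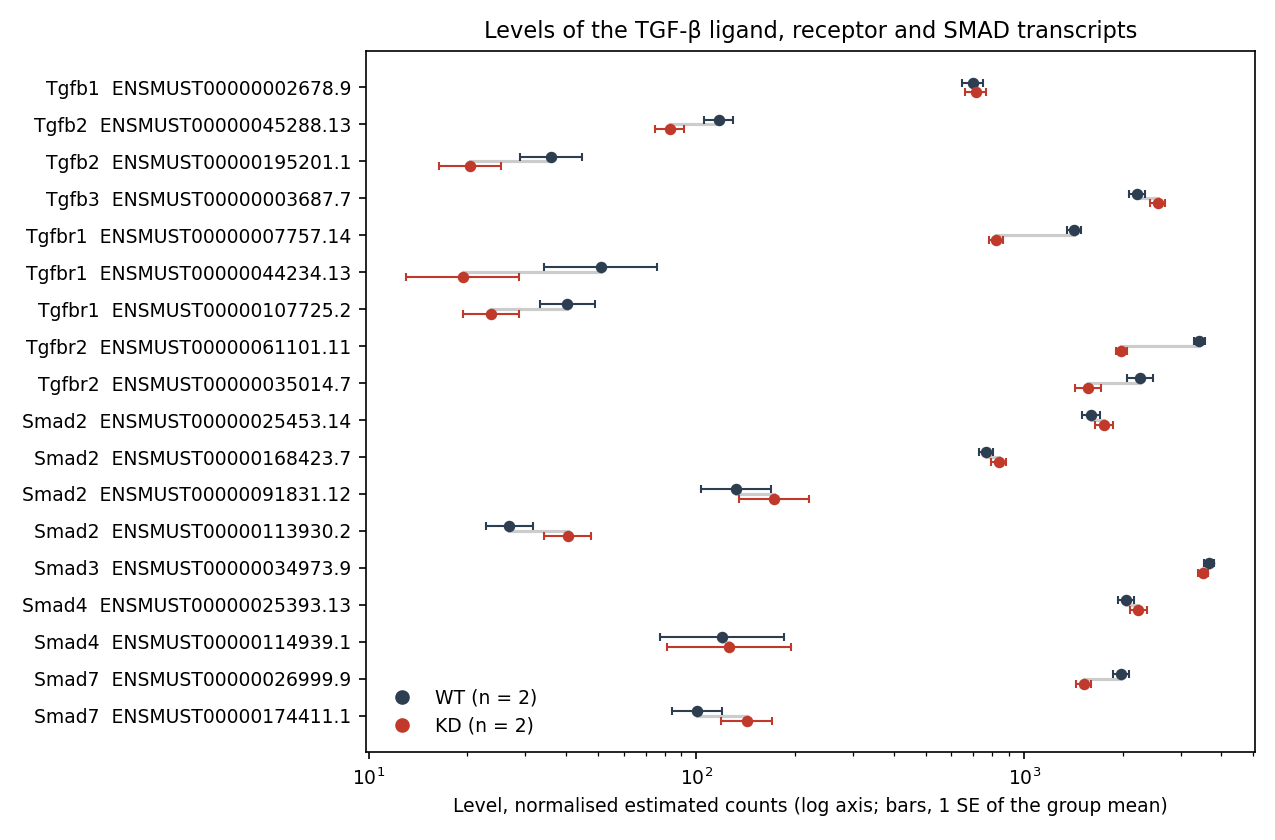
Level of each of the 18 member transcripts in WT and KD, in normalised estimated counts on a log axis, as geometric group means with 1 SE. The KD point of the main *Tgfbr1* transcript (819.7) and of the longer *Tgfbr2* transcript (1976.7) lies clearly left of the WT point (1418.1 and 3420.3), while the points of *Tgfb1* and *Smad3* nearly coincide.

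The ligands were expressed at very different levels. Per kilobase of transcript, *Tgfb3* had a level of 754.8 in KD and 653.9 in WT, in normalised estimated counts, *Tgfb1* had 327 and 320.3, and *Tgfb2*, summed over its isoforms, had 22.02 and 33.23. *Tgfb3* thus ranked above *Tgfb1* and *Tgfb1* above *Tgfb2* in both groups, with gaps larger than the SE of each level. *Tgfb1*, the most widely expressed ligand in mammalian tissues, is encoded on chromosome 7 (chr7:25687002-25705077, plus strand, 7 exons). Its single tested transcript ENSMUST00000002678.9 stood at 711.2 counts in KD and 696.7 in WT, a log2 difference of 0.03 with a 95% confidence interval from −0.36 to 0.42 (limma adjusted p = 0.922). The sign of this small difference turned negative under both scaling alternatives, to −0.02 after centring on the median and −0.15 after centring on GC content. *Tgfb3* (ENSMUST00000003687.7, chr12:86056745-86079041, minus strand) stood at 2553.6 counts in KD and 2212.3 in WT, a log2 difference of 0.21 (95% confidence interval −0.09 to 0.50, limma adjusted p = 0.306). About 10% of its 31-base words occur in other annotated genes, chiefly the predicted gene *Gm48008*, so some of its reads may be shared.

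*Tgfb2*, the ligand with the fewest reads, gave the lowest estimates among the ligands. Its main transcript ENSMUST00000045288.13 (chr1:186622792-186705989, minus strand) had 82.76 counts in KD and 117 in WT, a log2 difference of −0.50 (SE 0.21, 95% confidence interval −1.04 to 0.04, limma adjusted p = 0.204). The isoform with the extra exon, ENSMUST00000195201.1, had 20.38 counts in KD and 36.06 in WT, a log2 difference of −0.81 (SE 0.44, limma adjusted p = 0.310). Only 114 words of 31 bases, 3.3% of the transcript, separate this isoform from the main one, and the SD from read assignment (1.78 on the log2 scale) exceeded the SD within groups (0.52). A fall of *Tgfb2* as large as that of the receptors lies inside these intervals and was not detectable with these libraries.

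*Tgfbr1*, the type I receptor kinase, lies on chromosome 4 (chr4:47353222-47414931, plus strand). Its main transcript ENSMUST00000007757.14 has 9 exons and 5756 bases, and it carried 95.02% of the gene's level in KD and 93.9% in WT. The level was 819.7 counts in KD and 1418.1 in WT, which is 42.2% lower in KD with a 95% confidence interval from 30.5% to 51.9%. The log2 difference was −0.79 (SE 0.10, limma adjusted p = 0.0253), with an SD within groups of 0.09. The remaining *Tgfbr1* isoforms were rare. ENSMUST00000044234.13 had 19.34 counts in KD and 50.97 in WT (log2 difference −1.38, SE 0.81, limma adjusted p = 0.339), and only 27 words of 31 bases are its own. ENSMUST00000107725.2 had 23.59 counts in KD and 40.36 in WT (log2 difference −0.76, SE 0.40, limma adjusted p = 0.291). Summed over the 3 isoforms, the level of *Tgfbr1* was 42.9% lower in KD, a value given without a test.

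*Tgfbr2*, the type II receptor that binds the ligand first, lies on chromosome 9 (chr9:116084293-116175265, minus strand). Unlike *Tgfbr1*, it had 2 abundant isoforms. The longer transcript ENSMUST00000061101.11, which holds the 75-base exon and 8092 bases in all, had 1976.7 counts in KD and 3420.3 in WT, a log2 difference of −0.79 (SE 0.08, 95% confidence interval −0.9996 to −0.5821, limma adjusted p = 0.0192). The level was 42.2% lower in KD, with an interval from 33.2% to 49.99%. The shorter transcript ENSMUST00000035014.7, which skips that exon, had 1563.1 counts in KD and 2254.9 in WT, a log2 difference of −0.53 (SE 0.18, 95% confidence interval −1.01 to −0.04). Its unadjusted p in limma was 0.0385 and its adjusted p 0.152, with an SD within groups of 0.26 against 0.06 for the longer transcript. The 2 intervals overlap, and whether the isoforms changed by different amounts was not tested. By counts, which grow with transcript length, the longer isoform held 60.3% of the gene's level in WT and 55.8% in KD. Per kilobase the order was reversed. The shorter isoform had 449.7 in KD and 648.7 in WT, against 244.3 and 422.7 for the longer. Of the words of the longer isoform, 4714 of 31 bases (58.67%) are absent from the shorter one, against 125 (3.63%) the other way. Summed over both isoforms, *Tgfbr2* was 37.6% lower in KD, again without a test.

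**Figure D3:**
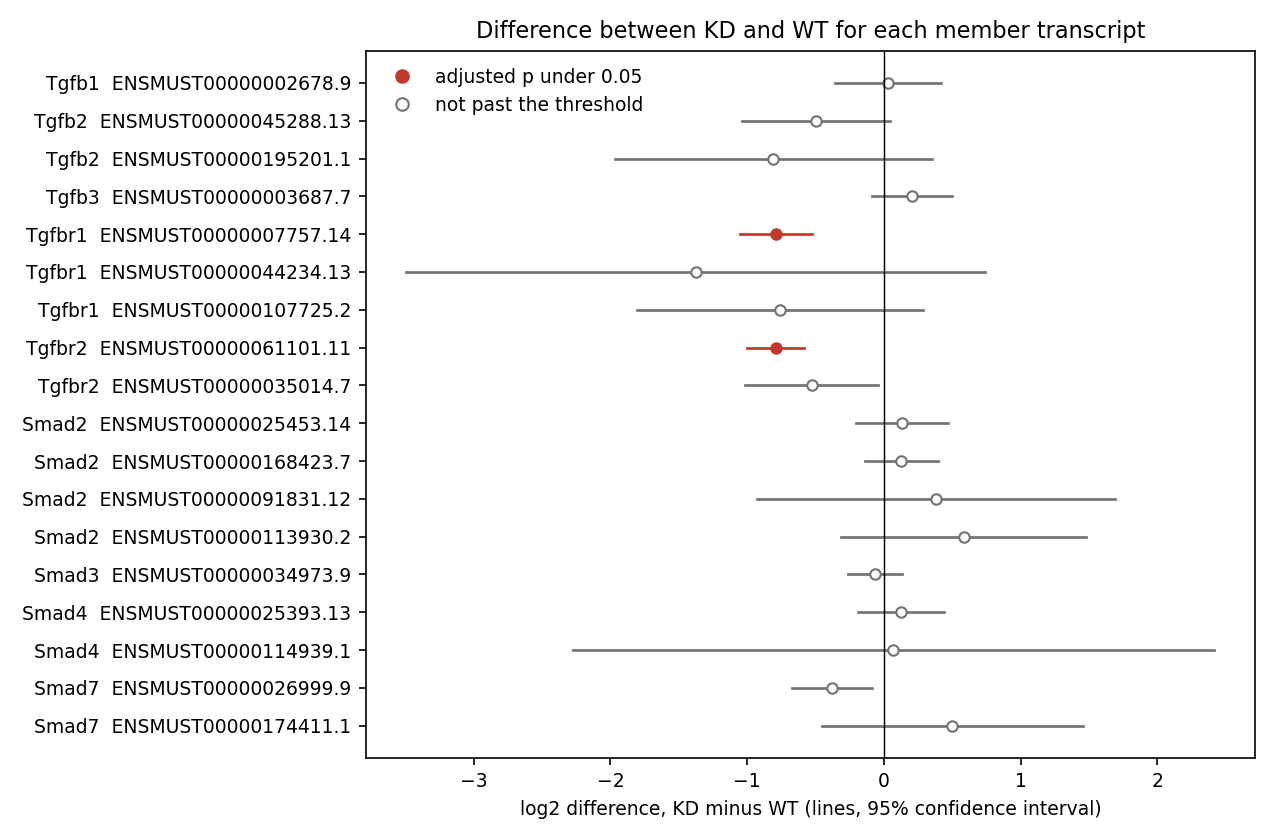
Log2 difference between KD and WT for each of the 18 member transcripts with its 95% confidence interval from the moderated variance (x axis), where filled points passed an adjusted p under 0.05 in limma. The filled points are the main *Tgfbr1* transcript and the longer *Tgfbr2* transcript, both at −0.79, and the widest intervals belong to rare isoforms such as *Smad4* ENSMUST00000114939.1 (−2.28 to 2.42).

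The receptor calls depend on how the variance of 2 libraries per group is steadied across transcripts. Without a trend of the prior variance with the mean, the adjusted p in limma was 0.118 for the main *Tgfbr1* transcript and 0.113 for the longer *Tgfbr2* transcript, and without any moderation 0.161 and 0.136. The call of *Setd2* itself is lost in the same settings, at adjusted p of 0.0537 and 0.103. Centring on GC content moved the *Tgfbr1* difference to −0.57 with an adjusted p of 0.0496. Among the 18808 transcripts averaging at least 100 counts, 4.57% had a difference as low as that of *Tgfbr1* or lower, and 4.56% one as low as that of *Tgfbr2*. Per kilobase, *Tgfbr2* summed to 694 counts in KD and 1071.4 in WT, above *Tgfbr1* with 162.9 and 287.7, so the type II receptor had the higher level in both groups.

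*Smad3* and the main transcripts of *Smad2*, the receptor-activated SMADs, had differences near 0. *Smad3*, which drives much of the fibroblast response, gave the tightest estimate of all members. Its transcript ENSMUST00000034973.9 (chr9:63646767-63757994, minus strand) had 3508.0 counts in KD and 3668.2 in WT, a log2 difference of −0.06 (SE 0.07, limma adjusted p = 0.623). The 95% confidence interval, from −0.26 to 0.13, does not reach the size seen for the receptors. *Smad2* was measured by 4 transcripts, of which ENSMUST00000025453.14 held 63.4% of the gene's level in WT. That transcript had 1749.5 counts in KD and 1599.5 in WT, a log2 difference of 0.13 (95% confidence interval −0.21 to 0.47, limma adjusted p = 0.562). The second, ENSMUST00000168423.7, had 835.1 and 765.4 counts and also a log2 difference of 0.13 (limma adjusted p = 0.480). The minor isoforms ENSMUST00000091831.12 (172.2 counts in KD, 132 in WT) and ENSMUST00000113930.2 (40.49 and 26.87) had log2 differences of 0.38 and 0.58, with limma adjusted p of 0.668 and 0.337. For these 2, the SD from read assignment was 1.00 and 1.22 on the log2 scale, above their SD within groups.

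*Smad4*, the partner that receptor-activated SMADs share, is encoded on chromosome 18, as are *Smad2* and *Smad7*. Its main transcript ENSMUST00000025393.13 had 2229.7 counts in KD and 2045.8 in WT, a log2 difference of 0.12 (95% confidence interval −0.19 to 0.44, limma adjusted p = 0.549). The minor isoform ENSMUST00000114939.1 had 125.7 and 119.7 counts, and its SD within groups, 1.34 on the log2 scale, leaves its direction undetermined (limma adjusted p = 0.972). *Smad7*, the inhibitory SMAD that TGF-β itself induces, came closest to the threshold among the SMADs. Its main transcript ENSMUST00000026999.9 held 95.2% of the gene's counts in WT and had 1518.1 counts in KD and 1972.3 in WT. The log2 difference was −0.38 (SE 0.11, 95% confidence interval −0.67 to −0.08), with an unadjusted p of 0.0217 and an adjusted p of 0.109 in limma. Under the variance rule of Sleuth the adjusted p of this transcript was 0.0179, and over all 8 settings it ranged from 0.0179 to 0.312. The short isoform ENSMUST00000174411.1 had 142.3 counts in KD and 100.4 in WT, a log2 difference of 0.50 (SE 0.36, limma adjusted p = 0.431). Per kilobase and summed over isoforms, *Smad3* (689.2 counts in KD, 720.7 in WT), *Smad4* (715.2 and 658.1) and *Smad7* (539.9 and 591.6) were within a narrow range. *Smad3* and *Smad4* changed places between the groups, so their order is not settled. The short *Smad7* isoform supplied 185.1 in KD and 130.6 in WT of its sum, and the main *Smad7* transcript alone had 354.9 and 461.

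The other genes of the pathway were followed in 5 lists. A gene counted as called when at least 1 of its transcripts passed an adjusted p under 0.05 in limma, which held for 7.47% of all 21945 genes in the higher direction and 5.93% in the lower. Of 19 genes that store or activate the latent ligand, 2 were called higher, 2 lower and 15 neither, shares near those of all genes. *Thbs1*, which encodes thrombospondin 1, an activator of latent TGF-β, had 20857 counts in KD and 61142 in WT, a log2 difference of −1.55 (limma adjusted p = 0.0152). *Bmp1*, a matrix protease, also fell, at −0.38 (limma adjusted p = 0.0432). *Mmp2*, the gelatinase, rose from 9342.3 counts in WT to 19124.9 in KD, a log2 difference of 1.03 (limma adjusted p = 0.0160). *Ltbp3*, a latent TGF-β binding protein, had a log2 difference of 0.51 (limma adjusted p = 0.0273), which moved to 0.31 and lost its call after centring on GC content (limma adjusted p = 0.0715). The 34 transcripts of this list had a median log2 difference of 0.01.

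Of 17 genes for co-receptors and receptor partners, 1 was called higher and 4 lower, with a median log2 difference of 0.05 over 37 transcripts. *Cav1* encodes caveolin 1, which takes part in receptor internalisation. Its most abundant transcript, ENSMUST00000007799.12, had 10098 counts in KD and 28512 in WT, a log2 difference of −1.50 (limma adjusted p = 0.0144). The second, ENSMUST00000115453.1, had 9468.3 counts in KD and 11654.9 in WT. Its log2 difference of −0.30 missed the threshold (limma adjusted p = 0.0835). The co-receptor *Cd109*, which restrains TGF-β signalling, fell by 0.62, and *Zfyve9*, which encodes the SMAD anchor SARA, fell by 0.60 (limma adjusted p = 0.0216 and 0.0263). The BMP type II receptor *Bmpr2* had a log2 difference of −0.47 (limma adjusted p = 0.0348), which moved to −0.25 and lost its call after centring on GC content (limma adjusted p = 0.127). The gene called higher was *Dab2*, an endocytic adaptor, at 0.76 and 0.95 in its 2 called transcripts (limma adjusted p = 0.0190 and 0.0282). The main transcript of the co-receptor *Tgfbr3*, betaglycan, had 6354.5 counts in KD and 5830.8 in WT, a log2 difference of 0.12 (limma adjusted p = 0.309).

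Of 14 genes listed as negative regulators, 4 were called higher and 0 lower, beside 7.47% and 5.93% of all genes. The list leaves out *Cd109* and *Smad7*, which also restrain the signal and are given above. Their log2 differences were −0.62 (called lower) and −0.38 (main transcript, not called), so the count depends on how genes were assigned. The ubiquitin ligase *Smurf1*, which acts on receptors together with SMAD7, had 4789.0 counts in KD and 3204.9 in WT, a log2 difference of 0.58 (limma adjusted p = 0.0251). After centring on GC content it stood at 0.36 and was not called (limma adjusted p = 0.0621). The ubiquitin ligase *Nedd4l* rose by 0.67 and the SMAD corepressor *Tgif1* by 0.75 and 0.52 in its 2 called transcripts (limma adjusted p = 0.0216, 0.0227 and 0.0468). The second of these *Tgif1* transcripts was not called after centring on the median (limma adjusted p = 0.0574), and the most abundant *Tgif1* transcript was not called, at 0.26 (limma adjusted p = 0.0851). The fourth was an isoform of *Tgif2* whose level was 40.75 counts in KD and 0 in WT, so no fold is given, and its SD from read assignment was 1.29 on the log2 scale. The more abundant *Tgif2* transcript had an estimate of −0.39 that missed the threshold (limma adjusted p = 0.145). The median log2 difference of this list was 0.25 over 33 transcripts but 0.04 over the 27 with a mean of at least 100 counts. Among all transcripts of at least 100 counts it was 0.05.

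Of 16 nuclear partners of SMADs, 14 were tested, while *Atf3* and *Foxh1* had no row in the table. Of the 14, 2 had a transcript called higher and 4 a lower one, with *Rnf111* in both counts. The AP-1 subunit *Fos* had 536.1 counts in KD and 2720.1 in WT, a log2 difference of −2.34 (limma adjusted p = 0.0160), and its partner *Jun* a difference of −0.65 (limma adjusted p = 0.0413). The acetyltransferase gene *Kat2b* fell by 1.19 (limma adjusted p = 0.0160). *Rnf111*, which encodes a ubiquitin ligase that removes SMAD repressors, had 1 isoform at −0.77 and another at 1.14 (limma adjusted p = 0.0464 and 0.0239). Reads of these isoforms were poorly separated, with an SD from read assignment of 1.00 and 0.41 on the log2 scale, and the lower isoform was not called when the variance was raised to at least that of read assignment (limma adjusted p = 0.172), with the variance rule of Sleuth (adjusted p = 0.740) or after centring on GC content (limma adjusted p = 0.0676). The most abundant *Rnf111* transcript was at −0.16 (limma adjusted p = 0.630). *Ehmt1*, which encodes a histone H3K9 methyltransferase, had 1 transcript at 0.59 (limma adjusted p = 0.0347), which was not called after centring on GC content (0.49, limma adjusted p = 0.0559), while its more abundant transcript was at −0.02 (limma adjusted p = 0.957).

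Textbook TGF-β targets of fibroblasts were lower more often than higher in KD. Of 31 such genes 28 were tested, since *Cdkn2b*, *Cilp* and *Postn* had no row in the table. Of these, 11 had a transcript called lower against 3 with one called higher, *Tpm1* being in both counts. Among all genes the shares were 5.93% and 7.47%, but genes with several transcripts have more chances of a call. By transcript, 15 of 66 were called lower and 5 higher. Among all transcripts with a mean of at least 100 counts, 6.55% were lower and 9.1% higher. This list, like the others, was chosen with earlier results of these data known. Another 15 of the genes had no called transcript. Among them, the most abundant transcripts of *Ltbp2* (0.84) and *Snai1* (0.47) had positive estimates, and those of *Junb* (−0.69) and *Id1* (−0.57) negative ones. For *Cdkn1a*, a cell cycle inhibitor counted as lower, the called transcript was a minor one (−0.69, mean 515.8 counts), and the main transcript (mean 12659.8 counts) had an estimate of 0.40 that missed the threshold (limma adjusted p = 0.0608). *Tagln*, which encodes the actin-binding protein transgelin, had 560 counts in KD and 2748.9 in WT, a log2 difference of −2.29 (limma adjusted p = 0.0144). Smooth muscle actin, *Acta2*, had 2131.5 counts in KD and 7508.1 in WT (log2 difference −1.82, limma adjusted p = 0.0183). *Timp3*, an inhibitor of metalloproteinases, fell by 1.25 and the matricellular gene *Ctgf* by 1.24 (limma adjusted p = 0.0152 and 0.0144). The collagen genes *Col3a1*, *Col1a2* and *Col1a1* fell by 0.92, 0.68 and 0.68 (limma adjusted p = 0.0201, 0.0218 and 0.0369).

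The higher targets were 2 isoforms of the fibronectin gene *Fn1*, 2 of *Myc* and 1 of *Tpm1*. *Fn1* ENSMUST00000055226.12 was the most abundant tested isoform of its gene (mean 241723 counts, against 43221.5 for the next). It had 307492 counts in KD and 190022 in WT, a log2 difference of 0.69 (limma adjusted p = 0.0336). *Fn1* ENSMUST00000188894.6 was at 1.25 (limma adjusted p = 0.0397). Neither was called after centring on GC content (limma adjusted p = 0.0518 and 0.0548). Other *Fn1* isoforms had negative estimates that missed the threshold, such as −0.41 for ENSMUST00000186129.6 (limma adjusted p = 0.131). *Myc*, which TGF-β represses in many cells, had 2 transcripts at 0.62 and 0.73 (limma adjusted p = 0.0286 and 0.0203). Its 2 most abundant transcripts were each at 0.19 (limma adjusted p = 0.249). Their values were identical, so they do not count as separate measurements. *Tpm1*, a tropomyosin gene, had 5 transcripts called lower and 1 higher. The median log2 difference of the 66 transcripts of this list was −0.29, and −0.38 for the 54 with a mean of at least 100 counts, beside −0.01 and 0.05 for all transcripts. Many of these targets also respond to serum response factor, YAP or AP-1, so the list is not specific to TGF-β, and the phosphorylation of SMADs was not measured by RNA-seq.

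**Figure D4:**
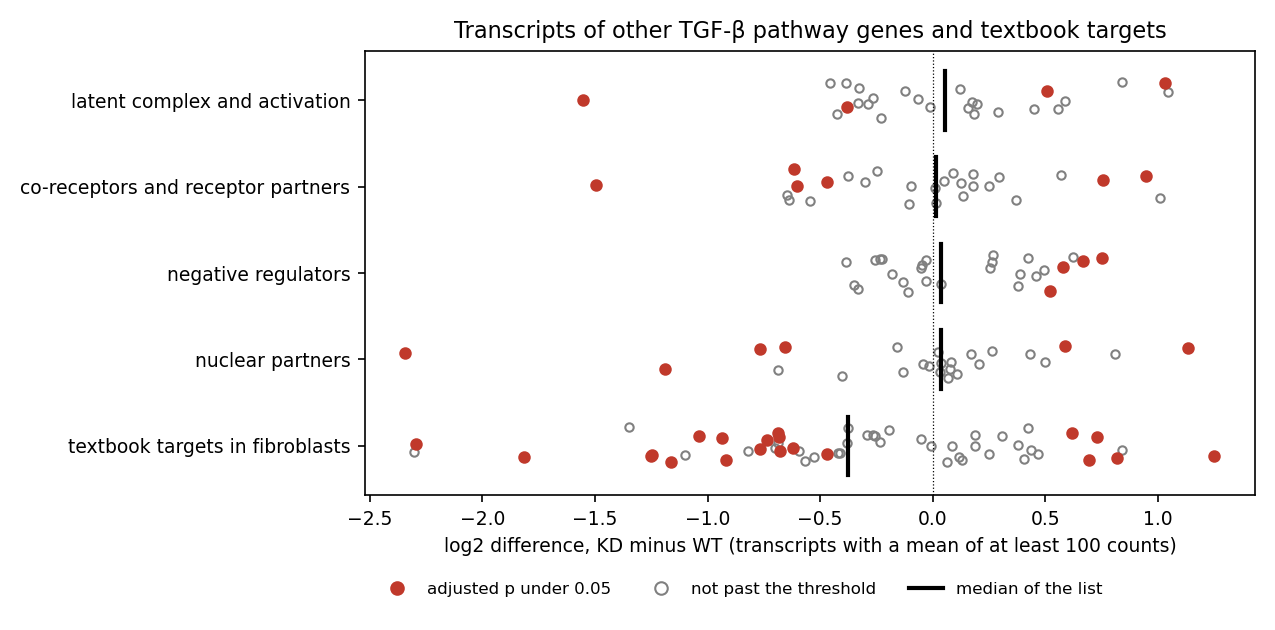
Log2 difference between KD and WT for those transcripts of the 5 lists that average at least 100 counts (x axis), with filled points for an adjusted p under 0.05 in limma and a bar at the median of each list. The filled points of the textbook targets lie mostly left of 0, from −2.29 for *Tagln* to 1.25 for 1 isoform of *Fn1*, whereas those of the negative regulators lie between 0.52 and 0.75.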

How the data were processed

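Polyadenylated RNA of 2 KD and 2 WT samples was measured by stranded RNA-seq. The authors trimmed adapters, estimated counts per transcript with Kallisto and compared the groups in Sleuth, and the submitters' processing notes name GRCm38. The values that the authors deposited and that were used here are the mean on the natural log scale of normalised estimated counts plus 0.5, and variances on the same scale, which carry no fixed range and are listed as a score. The transcriptome index and the filter on low values are not given in the sources used here. The deposited effects, standard errors, test statistics, p-values and q-values of the authors' comparison were not used, except for the sign of the effect, which was read as KD minus WT because the table does not state it and *Setd2* is negative. The table of genes was not used.

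The size of each difference was computed from the total and residual variances, which by construction gives the size of the deposited effect (largest gap 3.09e-10), so the differences printed are the authors' effects on the log2 scale and the tests are not. It was tested over all 34200 transcripts with limma 3.58.1 in R 4.3.3 (2 residual degrees of freedom, prior variance with a trend on the mean) and adjusted by Benjamini-Hochberg. The test was checked on simulated data, where it recovered the sizes of the changes but called a minority of the larger and none of the smaller ones at the adjusted threshold, so a member that was not called may still have changed. Group levels were the exponential of the mean plus or minus 0.5 times the difference, minus 0.5, so they are geometric means, and low levels are imprecise. Of the transcripts, 98.6% matched GENCODE M21 with the same version, which gave positions, lengths and sequences; *Smad2* ENSMUST00000168423.7 did not match and has no length. Annotated transcripts were compared by words of 31 bases on both strands.

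The members and lists were chosen with earlier results of these data known. Named genes were *Setd2*, all member transcripts and, in each list, up to 3 called transcripts with the largest rise and fall. *Tgfbr3*, *Bmpr2*, *Smurf1*, *Cdkn1a*, *Tpm1*, the collagen genes, *Ctgf* and *Jun* were named after their values were seen. The same holds for *Ltbp2*, *Snai1*, *Junb*, *Id1* and the second *Cav1* transcript. It also holds for the weaker called transcripts of *Tgif1*, *Fn1* and *Myc*, the most abundant transcripts given beside called ones, and the *Fn1* isoform that missed the threshold. Alternatives to the variance, the filter and the scaling are given in the closing section.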

Additional observations from a re-analysis of the deposited data

How the results depend on the processing

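No paired analysis was possible because values of single libraries were not analysed here; for the same reason leaving out each replicate, DESeq2 and edgeR were not run. Of all transcripts, 3312 were called, 1861 higher and 1451 lower. The counts (called, higher, lower) were 127, 51 and 76 with no trend of the prior variance, and 10, 7 and 3 without moderation. They were 6233, 3566 and 2667 with the variance combined as in Sleuth, and 2128, 1144 and 984 after centring on GC content, which moved single classes by up to 0.40 and down to −0.22 on the log2 scale. Centring on the median, a shift of 0.05, gave 1476 higher and 1692 lower. With the mean of at least 100 counts, 2926 were higher and 2039 lower. With the variance raised to at least that of read assignment, chosen after seeing the data, 4996 were called, 2961 of them higher and 2035 lower.

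Of the member transcripts, 0 were called without the trend and 0 without moderation, where *Setd2* kept −1.99 but not its call. The 2 called receptor transcripts passed in 6 of 8 settings each. *Tgfbr2* ENSMUST00000035014.7 passed with the variance of read assignment (adjusted p = 0.0165 in limma). *Tgfb1* ENSMUST00000002678.9 turned to −0.018 with the centring on the median and to −0.15 with that on GC content. In the lists, no trend left 0 calls and no moderation 0, apart from 1 negative regulator higher without the trend. Sleuth's variance gave 4 latency transcripts higher, 7 receptor partners lower, 8 negative regulators higher and 10 targets higher. The variance of read assignment gave 5 latency transcripts higher, 5 partners higher and 7 lower, and 11 targets higher and 25 lower. The filter gave 4 latency transcripts higher, 8 partners lower, 1 negative regulator lower and 9 targets higher. Centring on GC content left 1 nuclear partner and 3 targets higher.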
